A study of Mus musculus with 16 samples.

Results

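The cholesterol synthesis enzymes and sterol regulators described here are 31 genes, found by their symbols among 24060 gene labels in each of 16 expression tables: 19 enzymes of the route from acetyl-CoA to cholesterol and its prenyl side branch (Ggps1), and 12 genes that sense, switch on, move, store or remove sterols. All 31 passed the filter on low values (4 or more libraries at 1 FPKM or above), as did 13449 genes in all. The RNA came from the striatum and the hippocampus of 4 adult mice, numbered 970, 971, 974 and 977, at postnatal day 63. The groups were striatal IP (Str.IP), striatal input (Str.input), hippocampal IP (Hip.IP) and hippocampal input (Hip.input), with 4 libraries each, and every animal gave all 4 kinds of library. All mice, controls included since input and IP share the animal, carried a hemizygous Aldh1l1-creERT2 transgene and were heterozygous for Ribotag, on an FVB background crossed back to C57/Bl6N for 3 generations. Ribotag adds a hemagglutinin tag to a ribosomal protein in cells that express Cre, and the promoter of Aldh1l1, an astrocyte folate enzyme, drives the inducible Cre here. The IP is therefore RNA bound to tagged ribosomes pulled down through the tag, and the input is the cleared lysate of the same tissue before that step. Both sexes were used, the sex of each animal is not in the labels used here, and the induction of Cre is not given in the sources used here.

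Cholesterol hardly passes from blood into the adult brain, so brain cells make their own, and astrocytes are known as a main source that they hand to neurons on lipoproteins. The route runs from acetyl-CoA through mevalonate to isoprenoid diphosphates, squalene, lanosterol and cholesterol. Its genes are switched on together by SREBP transcription factors, which Scap escorts out of the endoplasmic reticulum and which Insig proteins hold back when sterol is plentiful. Liver X receptors answer to oxidised sterols and switch on export.

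Promoter windows were read for the members from RefSeq (GRCm38.p6), which lists a window of 300 bases, 250 before to 50 after the start of the gene, for 26 of the 31. Fdps, Fdft1, Sqle, Stard4 and Npc1 were not matched. The core of a sterol response element, TCACNCCAC on either strand, was found in 1 of the 26 members, Hmgcs1. Of all 32851 windows 1.24% held it, and of 27025 genes 1.44%. The CCAAT box, CCAAT on either strand, which NF-Y binds beside SREBP in many sterol genes, was found in 22 of the 26 and in 37.41% of all windows, or 41.06% of 27025 genes. The E-box CACGTG was found in 5 of the 26 and in 7.15% of all windows, or 8.09% of 27025 genes. Each match is a description of letters in the window and not a site. The windows of 6 members described below are shown, although no result rests on them: Hmgcs1 holds the element, Cyp51 and Msmo1 had an IP over input difference that differed between the regions, Insig1 and Insig2 moved apart in the IP, and Ggps1 was lower in it. Capitals mark CCAAT boxes (as CCAAT or ATTGG) and, in Hmgcs1, the element core, whose first base lies at -137 from the start. No capitals overlap.
Hmgcs1 (chr13:119690101-119690400, plus strand): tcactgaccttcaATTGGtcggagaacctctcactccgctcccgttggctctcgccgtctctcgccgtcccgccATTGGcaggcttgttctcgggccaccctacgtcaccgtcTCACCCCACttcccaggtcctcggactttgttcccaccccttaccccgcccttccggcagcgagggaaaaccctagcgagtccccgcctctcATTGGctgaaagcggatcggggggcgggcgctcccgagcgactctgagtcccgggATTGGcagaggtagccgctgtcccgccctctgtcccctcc
Cyp51 (chr5:4104648-4104947, minus strand): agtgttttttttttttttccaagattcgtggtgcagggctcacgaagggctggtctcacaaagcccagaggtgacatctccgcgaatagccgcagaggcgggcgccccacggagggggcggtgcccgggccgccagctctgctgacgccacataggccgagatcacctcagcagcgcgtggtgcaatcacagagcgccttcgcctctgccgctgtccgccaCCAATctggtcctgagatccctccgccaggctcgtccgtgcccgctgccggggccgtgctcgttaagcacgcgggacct
Msmo1 (chr8:64733529-64733828, minus strand): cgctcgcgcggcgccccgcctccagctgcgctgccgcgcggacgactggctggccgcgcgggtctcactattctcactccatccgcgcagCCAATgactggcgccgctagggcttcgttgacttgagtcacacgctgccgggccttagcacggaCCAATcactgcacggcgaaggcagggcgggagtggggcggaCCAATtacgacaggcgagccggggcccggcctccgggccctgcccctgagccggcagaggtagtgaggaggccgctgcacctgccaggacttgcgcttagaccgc
Insig1 (chr5:28071162-28071461, plus strand): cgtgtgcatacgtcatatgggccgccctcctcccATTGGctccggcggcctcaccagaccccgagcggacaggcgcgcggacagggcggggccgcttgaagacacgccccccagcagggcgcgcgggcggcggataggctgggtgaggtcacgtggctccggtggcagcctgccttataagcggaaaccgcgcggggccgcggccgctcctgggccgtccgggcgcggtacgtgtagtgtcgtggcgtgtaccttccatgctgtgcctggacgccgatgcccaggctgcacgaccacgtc
Insig2 (chr1:121332540-121332839, minus strand, the outermost of 3 listed windows): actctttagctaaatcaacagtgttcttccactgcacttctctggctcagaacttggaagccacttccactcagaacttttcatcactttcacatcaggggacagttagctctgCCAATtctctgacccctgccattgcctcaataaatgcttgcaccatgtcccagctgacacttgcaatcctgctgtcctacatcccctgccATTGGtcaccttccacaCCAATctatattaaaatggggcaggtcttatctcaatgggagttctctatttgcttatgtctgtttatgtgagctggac
Ggps1 (chr13:14063439-14063738, minus strand): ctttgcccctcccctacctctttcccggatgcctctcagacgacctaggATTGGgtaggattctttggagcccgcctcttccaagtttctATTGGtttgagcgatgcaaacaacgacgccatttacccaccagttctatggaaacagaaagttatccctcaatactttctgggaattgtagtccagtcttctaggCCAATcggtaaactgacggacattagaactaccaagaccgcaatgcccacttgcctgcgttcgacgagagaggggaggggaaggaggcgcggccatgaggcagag

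Values below are scaled FPKM, fragments per kilobase of gene relative to the library's total, divided by a scaling factor per library; values per animal run in the order 970, 971, 974, 977. Fold changes are on log2(scaled FPKM + 1) with their standard error from 1 limma fit over all 16 libraries, and they understate changes of low genes. An adjusted p under 0.05, by the Benjamini-Hochberg method over all 13449 genes, counts as passing. Depth, estimated from the smallest steps in the values, was 13.1 to 20.5 megafragments in Str.IP, 3.9 to 8.44 in Str.input, 17.8 to 21.3 in Hip.IP and 8.5 to 11.5 in Hip.input. Striatal inputs were thus the shallowest. Of 12 astrocyte markers, all 12 were higher in IP over input in both regions, with log2 fold changes of 2.94 to 4.80 in the striatum and 3.41 to 4.58 in the hippocampus, and none was at 0 in any library. Of 13 neuronal markers, 12 were lower in the striatum and 13 in the hippocampus. Oligodendrocyte markers were lower for 9 of 10 in both regions, and 1 was higher in the hippocampus. Markers were lower in both regions for 8 of 9 microglial genes, 4 of 5 oligodendrocyte precursor genes and 5 of 6 tested endothelial and mural genes, with 1 of the last higher. Neuronal RNA still stood in the IPs at a median of 9.29% to 23.6% of its level in the matching striatal input and 5.40% to 11.7% in the matching hippocampal input, with animal 974 highest in both. In bulk samples, fewer cells of a type and less RNA per cell cannot be told apart.

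The astrocyte IP was richer than tissue input in most of the pathway. In Str.IP over Str.input, 25 of 31 members were higher and 3 lower, against 32.1% of all tested genes higher and 33.1% lower. In Hip.IP over Hip.input, 27 of 31 were higher and 2 lower, against 28.6% of all tested genes higher and 37.1% lower. The median log2 fold change of the members was 1.84 in the striatum, where that of all genes was -0.03, and 1.97 in the hippocampus, where that of all genes was -0.15. The summed level of the 19 enzymes was 469 to 614 in Str.IP against 146 to 168 in Str.input, and 734 to 787 in Hip.IP against 174 to 187 in Hip.input. The IPs stood above the inputs with no overlap in either region. Among enzymes, 17 of 19 were higher and 2 lower in the striatum, and 18 were higher and 1 lower in the hippocampus. Among the 12 regulators and handling genes, 8 were higher and 1 lower in the striatum, and 9 higher and 1 lower in the hippocampus.

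**Figure D1:**
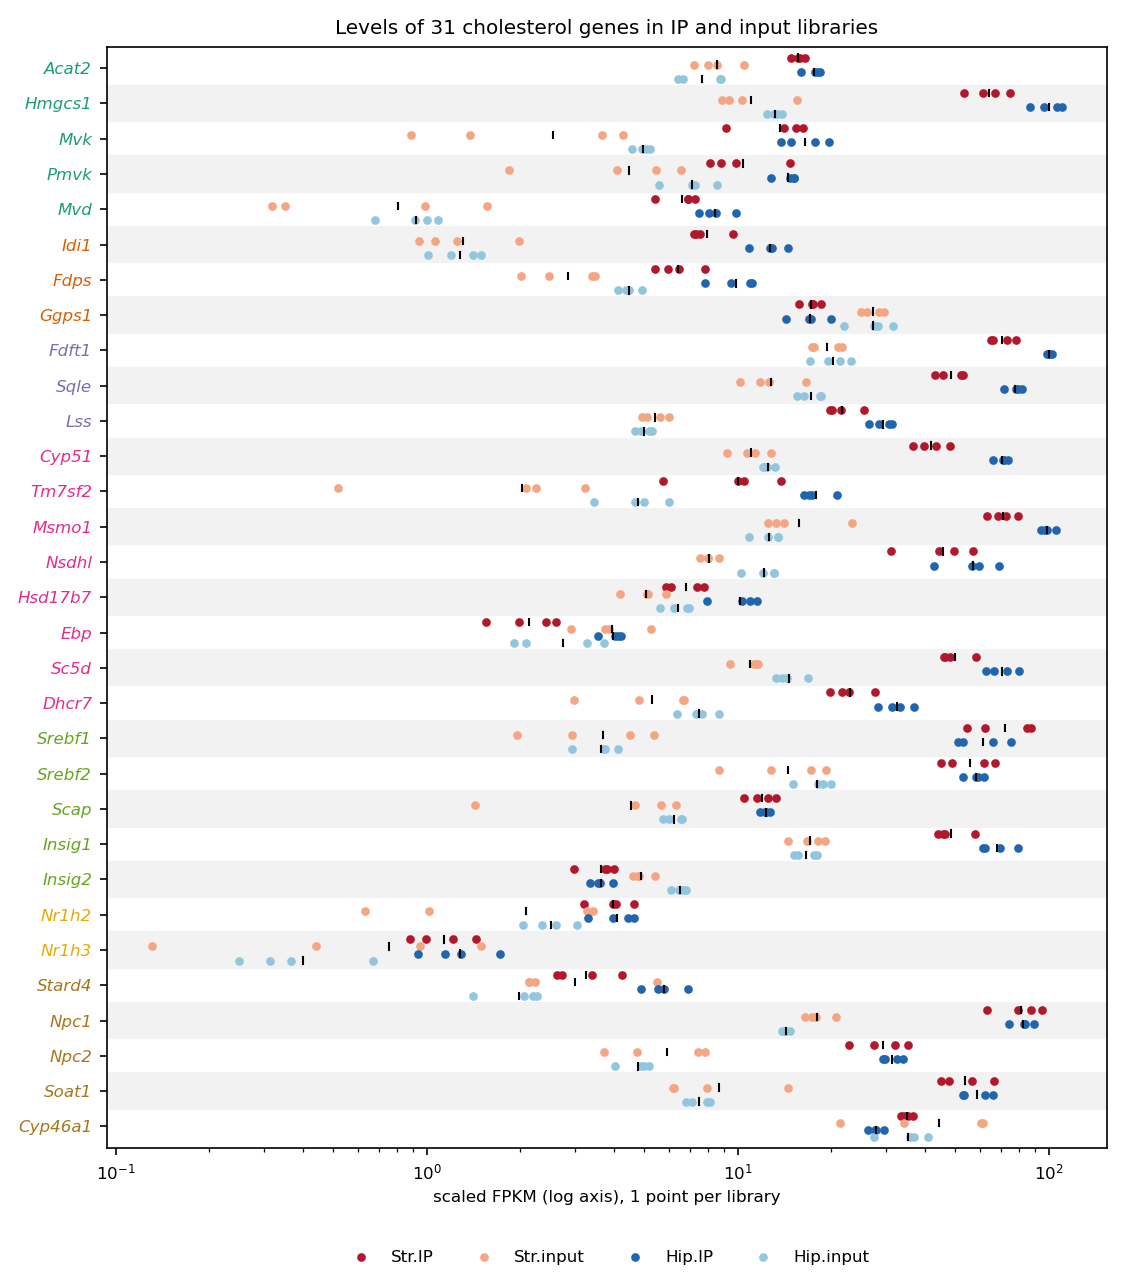
Each point is 1 library, placed by scaled FPKM on a log axis, with the 4 groups in separate lanes and a black tick at the mean of 4; gene names are coloured by pathway step. Most members lie to the right in the IP lanes (Srebf1, 54.5 to 87.9 in Str.IP against 1.95 to 5.38 in Str.input), while Ggps1 and Insig2 lie to the left.

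The first steps, from acetyl-CoA to isopentenyl diphosphate, were higher in IP for 5 of 5 members in both regions. Hmgcs1, the synthase that makes HMG-CoA, had 61.3, 74.97, 67.4 and 53.5 in Str.IP against 8.92, 10.3, 15.5 and 9.39 in Str.input, and 87.2, 96.9, 106 and 109.9 in Hip.IP against 13.4, 12.4, 13.9 and 13.05 in Hip.input. IP was far above input in every animal and the groups did not overlap. The log2 fold change was 2.46 ± 0.15 in the striatum (adjusted p = 7.04e-10) and 2.83 ± 0.15 in the hippocampus (adjusted p = 1.10e-10). Mvk and Pmvk, which add phosphates to mevalonate, rose by 2.15 ± 0.27 and 1.11 ± 0.24 in the striatum and by 1.55 ± 0.27 and 0.94 ± 0.24 in the hippocampus. Mvd, the decarboxylase that closes this stretch, rose by 2.13 ± 0.18 in the striatum and 2.30 ± 0.18 in the hippocampus, and its input levels were low, 0.317 to 1.57 in Str.input and 0.681 to 1.09 in Hip.input. Only 2 to 22 estimated fragments stood behind Mvd in Str.input, and Mvk there was at 3.65, 0.891, 1.38 and 4.27, low in animals 971 and 974. Acat2, the thiolase that opens the pathway, rose least of the 5 in the striatum, by 0.81 ± 0.12 (adjusted p = 2.34e-05), and by 1.11 ± 0.12 in the hippocampus. Acat2 is uncertain, since 65.6% of its transcript has a copy of at least 95% identity in its neighbour Acat3. Without scaling, Pmvk no longer passed in the hippocampus (0.48, adjusted p = 0.128).

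Of the 3 genes of isoprenoid diphosphates, 2 were higher and 1 lower in both regions. Idi1, the isopentenyl diphosphate isomerase, had 7.25, 9.68, 7.57 and 7.33 in Str.IP against 1.97, 1.25, 1.06 and 0.941 in Str.input, and 10.9, 12.9, 14.5 and 12.7 in Hip.IP against 1.01, 1.41, 1.49 and 1.199 in Hip.input. Its IP and input libraries did not overlap (striatum: log2 fold change 1.97 ± 0.14, adjusted p = 5.66e-09; hippocampus: log2 fold change 2.59 ± 0.14, adjusted p = 1.87e-10). Fdps, the farnesyl diphosphate synthase at the fork towards sterols, rose by 0.96 ± 0.15 in the striatum and 0.98 ± 0.15 in the hippocampus. Ggps1, which lengthens farnesyl to geranylgeranyl diphosphate for protein prenylation and so leads away from cholesterol, had 15.7, 17.4, 17.5 and 18.5 in Str.IP against 26.1, 29.4, 28.4 and 24.9 in Str.input, and 17.2, 14.3, 16.99 and 19.9 in Hip.IP against 28.2, 21.99, 31.6 and 27.4 in Hip.input. Every IP library was below every input library of its region. The log2 fold change was -0.63 ± 0.12 (adjusted p = 0.000237) in the striatum and -0.64 ± 0.12 (adjusted p = 0.000183) in the hippocampus. Counting of Fdps is uncertain, as 5 processed pseudogenes match up to 76.8% of its transcript and Gm43738 shares 26.7% of its exonic bases on the same strand. Copies also match 22.6% of Idi1 and 21.3% of Ggps1.

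The 3 steps that lead from farnesyl diphosphate to lanosterol were all higher in IP in both regions, and within each region they moved by nearly the same amount. Fdft1, squalene synthase and the first enzyme given over to sterols, had 65.5, 78.4, 73.2 and 65.96 in Str.IP against 17.4, 21.6, 17.5 and 21.05 in Str.input, and 103, 101, 98.5 and 100.2 in Hip.IP against 23.05, 17.1, 19.5 and 21.2 in Hip.input. It was the member with the highest mean in Hip.IP, and its IP and input ranges were apart. Sqle, the squalene epoxidase, had 45.7, 53.04, 52.1 and 43.2 in Str.IP against 10.2, 12.6, 16.6 and 11.8 in Str.input, and 81.98, 79.8, 71.7 and 78.7 in Hip.IP against 18.5, 16.4, 15.5 and 18.4 in Hip.input. Lss, the cyclase that forms lanosterol, had 21.5, 25.5, 20.03 and 19.8 in Str.IP against 5.099, 5.61, 4.93 and 6.01 in Str.input, and 26.5, 30.6, 28.5 and 31.4 in Hip.IP against 4.67, 4.87, 5.19 and 5.302 in Hip.input. None of the 3 had overlapping IP and input libraries. The log2 fold changes were 1.82 ± 0.11, 1.86 ± 0.13 and 1.82 ± 0.10 in the striatum for Fdft1, Sqle and Lss (largest adjusted p = 2.87e-09), and 2.27 ± 0.11, 2.12 ± 0.13 and 2.33 ± 0.10 in the hippocampus (largest adjusted p = 4.69e-10). Fdft1 overlaps Ctsb on the opposite strand over 18.3% of its exonic bases, which an unstranded kit cannot separate, and a processed pseudogene matches 33.8% of its transcript.

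The late enzymes, which trim and reduce lanosterol to cholesterol, were higher in IP for 7 of 8 members in the striatum, with 1 lower, and for 8 of 8 in the hippocampus. Cyp51, the lanosterol demethylase, had 39.7, 48.2, 43.3 and 36.6 in Str.IP against 9.21, 12.8, 11.4 and 10.7 in Str.input, and 65.98, 73.7, 71.5 and 71.6 in Hip.IP against 12.2, 12.1, 12.4 and 13.2 in Hip.input. Msmo1, which oxidises methyl groups of the sterol ring, had 72.9, 79.8, 68.8 and 63.4 in Str.IP against 13.2, 14.1, 23.4 and 12.5 in Str.input, and 97.2, 94.5, 98.4 and 105 in Hip.IP against 12.5, 13.4, 10.8 and 13.5 in Hip.input. Both were apart in IP and input in each region, and Msmo1 was high in the striatal input of animal 974. Cyp51 rose by 1.84 ± 0.11 in the striatum and 2.41 ± 0.11 in the hippocampus, and Msmo1 by 2.14 ± 0.15 in the striatum and 2.88 ± 0.15 in the hippocampus. The dehydrogenase Nsdhl, the desaturase Sc5d and the final reductase Dhcr7 rose by 2.33 ± 0.17, 2.08 ± 0.11 and 1.97 ± 0.18 in the striatum, and by 2.13 ± 0.17, 2.20 ± 0.11 and 1.97 ± 0.18 in the hippocampus. The sterol reductase Tm7sf2 rose by 1.91 ± 0.27 in the striatum, where its input ranged over 0.516 to 3.22, and by 1.71 ± 0.27 in the hippocampus. It shares 12.1% of its exonic bases with Vps51.

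Hsd17b7, the ketoreductase of the late steps, rose less, by 0.36 ± 0.13 (adjusted p = 0.0248) in the striatum and 0.58 ± 0.13 (adjusted p = 0.0009798) in the hippocampus. Ebp, the sterol isomerase, went opposite ways in the regions. It had 2.598, 1.55, 1.98 and 2.42 in Str.IP against 3.75, 3.85, 5.25 and 2.901 in Str.input, and 4.04, 4.13, 3.55 and 4.21 in Hip.IP against 1.903, 2.09, 3.26 and 3.72 in Hip.input. All 4 striatal IPs lay below all 4 striatal inputs, while in the hippocampus IP was above input in every animal but the ranges overlapped. The log2 fold change was -0.65 ± 0.17 (adjusted p = 0.00403) in the striatum and 0.44 ± 0.17 (adjusted p = 0.0354) in the hippocampus. The hippocampal call of Ebp did not hold without animal 970 (0.40, adjusted p = 0.111), without animal 971 (0.43, adjusted p = 0.103) or without scaling (0.06), and the striatal call did not hold without animal 974 and striatal input 971 (-0.44, adjusted p = 0.087), an alternative chosen after seeing the data. The striatal call of Hsd17b7 did not hold without animal 970 (0.25, adjusted p = 0.201), 971 (0.35, adjusted p = 0.0878) or 977 (0.39, adjusted p = 0.0566) or with the 2 groups fitted alone (adjusted p = 0.0808), and neither region's held without scaling.

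**Figure D2:**
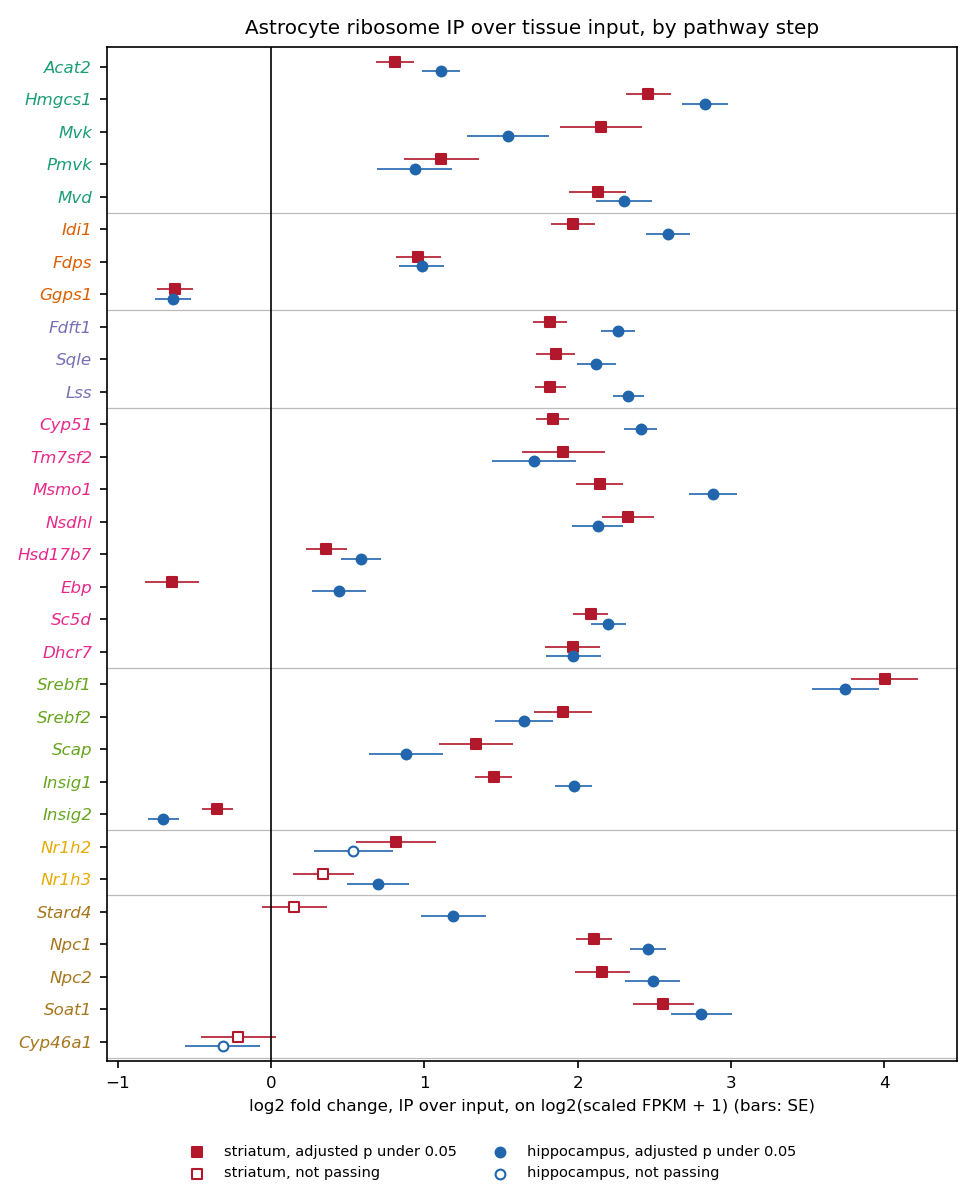
Points are log2 fold changes of IP over input with SE bars for the 31 members, striatum as red squares above hippocampus as blue circles; filled symbols passed, open ones did not, and grey lines part the pathway steps. The steps from Fdft1 to Lss sit near 2, Ggps1 and Insig2 sit left of 0 in both regions, and Ebp is on opposite sides of 0.

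In the SREBP system 4 of 5 members were higher in IP and 1 lower in both regions. Srebf1, which encodes the SREBP that favours fatty acid genes, had 87.9, 84.97, 54.5 and 62.5 in Str.IP against 4.501, 2.94, 1.95 and 5.38 in Str.input, and 75.6, 66.2, 53.1 and 51.1 in Hip.IP against 3.72, 4.11, 2.93 and 3.74 in Hip.input. IP stood far above input in every animal. Its log2 fold change, 4.00 ± 0.22 for the striatum (adjusted p = 2.55e-10) and 3.75 ± 0.22 (adjusted p = 3.43e-10) in the hippocampus, was the largest of the 31, and it was the 1 member that reached the range of the 12 astrocyte markers in either region. Srebf2, which encodes the SREBP that favours cholesterol genes, had 61.8, 67.1, 44.9 and 48.7 in Str.IP against 17.2, 12.8, 8.73 and 19.2 in Str.input, and 62.1, 59.2, 53.2 and 58.6 in Hip.IP against 18.05, 18.8, 15.1 and 19.9 in Hip.input. Srebf2 was high in input too, and it rose by 1.91 ± 0.19 in the striatum and 1.65 ± 0.19 in the hippocampus. Scap, the escort, rose by 1.34 ± 0.24 in the striatum and 0.88 ± 0.24 in the hippocampus, the last not without scaling (0.43, adjusted p = 0.189). In Str.input Scap was at 5.66, 4.69, 1.43 and 6.33, low in animal 974. Its striatal value ran down to 0.87 over the alternatives, and it passed in all of them.

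The paired retention factors Insig1 and Insig2 moved apart. Insig1, itself a target of SREBP, had 43.95, 57.9, 46.3 and 45.8 in Str.IP against 14.5, 19.1, 16.7 and 18.1 in Str.input, and 61.5, 69.8, 62.3 and 79.4 in Hip.IP against 15.7, 15.1, 17.96 and 17.6 in Hip.input (striatum: log2 fold change 1.45 ± 0.12, adjusted p = 2.59e-08; hippocampus: log2 fold change 1.97 ± 0.12, adjusted p = 5.70e-10). Insig2 had 3.81, 3.75, 2.98 and 4.01 in Str.IP against 4.77, 5.42, 4.82 and 4.59 in Str.input, and 3.36, 3.98, 3.54 and 3.61 in Hip.IP against 6.84, 6.11, 6.49 and 6.69 in Hip.input. Its IP libraries all lay below its input libraries (striatum: log2 fold change -0.35 ± 0.10, adjusted p = 0.00586; hippocampus: log2 fold change -0.71 ± 0.10, adjusted p = 1.12e-05). The striatal call of Insig2 did not hold with the 2 groups fitted alone (adjusted p = 0.0638) or, in an alternative chosen after seeing the data, without animal 974 and striatal input 971 (-0.22, adjusted p = 0.0811). The ratio of Insig1 to Insig2 within a library was 11.4 to 15.6 in Str.IP against 3.05 to 3.94 in Str.input, and 17.6 to 22.01 in Hip.IP against 2.29 to 2.77 in Hip.input. The ratio of Srebf1 to Srebf2 was 1.22 to 1.42 in Str.IP against 0.224 to 0.280 in Str.input, and 0.872 to 1.22 in Hip.IP against 0.188 to 0.219 in Hip.input. The ratio of Fdft1 to Ggps1, the sterol and the prenyl branch, was 3.57 to 4.51 in Str.IP against 0.617 to 0.844 in Str.input, and 5.04 to 7.02 in Hip.IP against 0.619 to 0.819 in Hip.input. The 3 pairs were chosen after the values were seen, and the ratios are a description with no test.

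**Figure D3:**
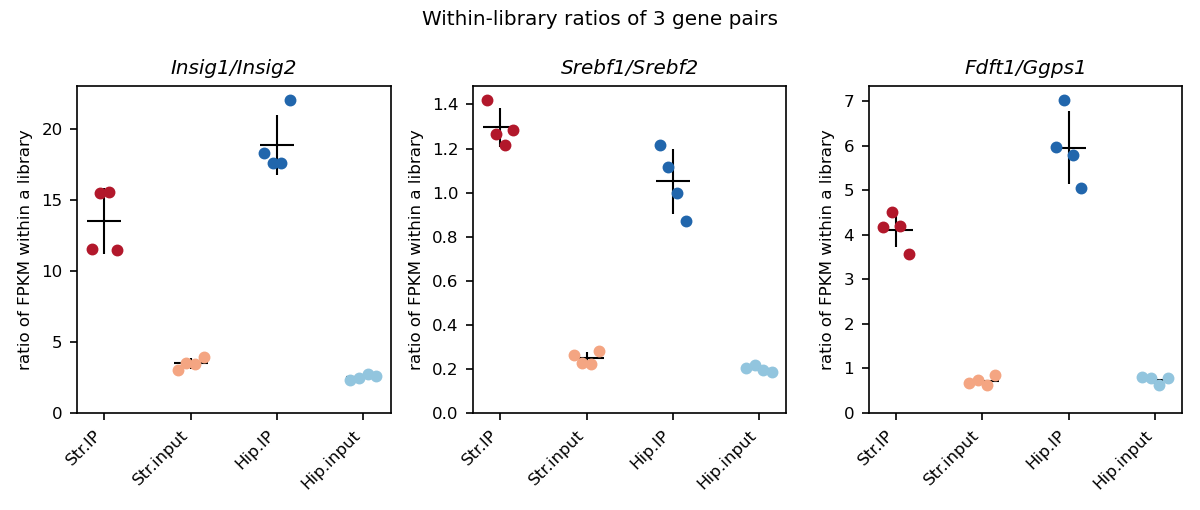
Each point is the ratio of FPKM of 2 genes within 1 library, with groups on the horizontal axis and the mean ± SD over 4 animals in black. For Insig1 over Insig2, Srebf1 over Srebf2 and Fdft1 over Ggps1 the IP libraries lie above the input libraries in both regions.

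Of the liver X receptors, Nr1h2 passed in the striatum and Nr1h3 in the hippocampus, both higher in IP. The result for Nr1h2 depended on the libraries and settings in both regions, as given below. The difference between the regions did not pass for either. Nr1h2, the widely expressed form, had 3.97, 4.62, 3.21 and 4.06 in Str.IP against 3.42, 1.02, 0.631 and 3.28 in Str.input, and 4.43, 3.97, 3.298 and 4.65 in Hip.IP against 2.35, 2.598, 2.04 and 3.04 in Hip.input. It was low in the striatal inputs of animals 971 and 974 (log2 fold change 0.81 ± 0.26, adjusted p = 0.0113). Its hippocampal difference of 0.54 ± 0.26 did not pass (adjusted p = 0.0785), although IP was above input in all 4 animals with no overlap. That difference passed with the animal as a block (adjusted p = 0.0391) and with the 2 groups fitted alone (0.64 ± 0.12, adjusted p = 0.000597). It also passed without striatal inputs 971 and 974 (adjusted p = 0.00108) and with median-of-ratios scaling (adjusted p = 0.0467). The striatal call did not hold without animal 971 (0.59, adjusted p = 0.147) or without those 2 inputs (0.17, adjusted p = 0.323). Nor did it hold without scaling (0.58, adjusted p = 0.101) or with the 2 groups fitted alone (0.81, adjusted p = 0.0553). In the alternative chosen after seeing the data, without animal 974 and striatal input 971, it was 0.26 (adjusted p = 0.0734). Nr1h3, the form of liver and fat, was the lowest member, with 0.884 to 1.44 in Str.IP against 0.131 to 1.49 in Str.input, and 0.938 to 1.73 in Hip.IP against 0.249 to 0.671 in Hip.input. It passed in the hippocampus (log2 fold change 0.70 ± 0.20, adjusted p = 0.00598) and did not in the striatum (0.34 ± 0.20, adjusted p = 0.149), except without animal 974 (0.57, adjusted p = 0.0257). Only 2 to 18 estimated fragments stood behind it in Str.input, and 7 to 17 in Hip.input, the low side of the hippocampal call. No Hip.input library of Nr1h3 reached 1 FPKM, so it passed the filter through libraries of the other groups.

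Genes that move and store sterol were higher in IP for 3 of 5 members in the striatum and 4 of 5 in the hippocampus. Npc1 and Npc2, which pass cholesterol out of the lysosome, had 63.4 to 94.8 and 22.7 to 35.3 in Str.IP against 16.4 to 20.6 and 3.73 to 7.83 in Str.input, and 74.5 to 89.6 and 29.4 to 33.9 in Hip.IP against 13.9 to 14.7 and 4.04 to 5.200 in Hip.input. They rose by 2.10 ± 0.12 and 2.16 ± 0.18 in the striatum and by 2.46 ± 0.12 and 2.49 ± 0.18 in the hippocampus, and Npc1 had the highest mean of all members in Str.IP. Soat1, which esterifies cholesterol for storage, rose by 2.56 ± 0.20 in the striatum and 2.81 ± 0.20 in the hippocampus. Stard4, a soluble sterol carrier and SREBP target, had 2.62, 3.41, 4.25 and 2.73 in Str.IP against 2.22, 2.14, 5.52 and 2.13 in Str.input, and 6.902, 5.52, 5.79 and 4.87 in Hip.IP against 2.05, 2.19, 1.403 and 2.26 in Hip.input. The hippocampal groups were apart (log2 fold change 1.19 ± 0.21, adjusted p = 0.000117), whereas the striatal groups overlapped, with animal 974 high in input (0.15 ± 0.21, adjusted p = 0.555).

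Cyp46a1, the hydroxylase that lets sterol leave the brain and that is known mainly from neurons, had the highest input mean of the 31 in both regions. It had 36.7, 35.4, 33.6 and 34.1 in Str.IP against 61.7, 34.3, 21.3 and 60.6 in Str.input, and 29.6, 27.6, 27.9 and 26.1 in Hip.IP against 36.9, 35.8, 27.3 and 40.8 in Hip.input. IP and input overlapped in both regions, with log2 fold changes of -0.22 ± 0.24 (adjusted p = 0.452) in the striatum and -0.32 ± 0.24 (adjusted p = 0.266) in the hippocampus. The neuronal markers of these IPs stood at the shares of input given above. Without striatal inputs 971 and 974 Cyp46a1 was lower in IP in the striatum (-0.80, adjusted p = 5.81e-05). The hippocampal value was then still -0.32 but passed (adjusted p = 0.0107), with an SE of 0.10 in place of 0.24. The spread behind each SE is estimated over all 4 groups, striatal inputs included. Without animal 974 Cyp46a1 was lower in IP in the striatum (-0.48, adjusted p = 0.0342). Without scaling it was lower in the hippocampus (-0.80, adjusted p = 0.027).

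Neighbouring lists of the pathway, 72 genes of which 67 were tested, were set beside the members. Of all tested genes, 32.1% were higher and 33.1% lower in IP in the striatum, and 28.6% higher and 37.1% lower in the hippocampus. Acetyl-CoA supply and fatty acid targets of SREBP were higher in IP for 7 of 9 and lower for 1 in the striatum, and higher for 8 and lower for 1 in the hippocampus. The fatty acid synthase Fasn averaged 85.4 ± 13.8 in Str.IP and 8.48 ± 1.802 in Str.input (SD, n = 4 each; log2 fold change 3.19 ± 0.14, adjusted p = 3.06e-11). The desaturase Scd1 averaged 296 ± 38.7 in Hip.IP and 26.1 ± 2.25 in Hip.input (SD, n = 4 each; log2 fold change 3.44 ± 0.15, adjusted p = 2.15e-11). Scd2, a second desaturase, and Fasn rose by 3.36 ± 0.19 and 2.75 ± 0.14 in the hippocampus, and the malic enzyme Me1 and the acetyl-CoA synthetase Acss2 by 2.32 ± 0.12 and 2.67 ± 0.15 in the striatum. Genes of SREBP cleavage and reductase turnover were higher for 6 of 11 and lower for 3 in the striatum, and higher for 5 and lower for 1 in the hippocampus. Among them Erlin2, part of a membrane complex of the endoplasmic reticulum, rose by 1.78 ± 0.12 in the striatum and 1.51 ± 0.12 in the hippocampus.

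In the non-sterol isoprenoid branch 5 of 12 were higher and 2 lower in the striatum, and 3 were higher and 5 lower in the hippocampus, the last near the shares of all tested genes. The farnesyltransferase subunit Fnta and the dolichol kinase Dolk rose by 1.19 ± 0.13 and 1.68 ± 0.21 in the striatum and 1.33 ± 0.13 and 1.38 ± 0.21 in the hippocampus. Nus1, part of the enzyme that makes dolichol chains, fell by 1.89 ± 0.19 in the striatum and 1.25 ± 0.19 in the hippocampus. Efflux, lipoprotein uptake and liver X receptor partners were higher for 8 of 12 and lower for 3 in the striatum, and higher for 6 and lower for 4 in the hippocampus. Here the transporters parted: Abca1 rose by 2.73 ± 0.17 and 2.59 ± 0.17, and Abcg1 fell by 2.24 ± 0.15 and 2.42 ± 0.15, in the striatum and the hippocampus. Lrp1, a lipoprotein receptor, rose by 3.04 ± 0.17 in the striatum and 2.90 ± 0.17 in the hippocampus. Of 19 transport and storage genes tested, 4 were higher and 7 lower in the striatum, against 32.1% and 33.1% of all tested genes. In the hippocampus 6 were higher and 9 lower, against 28.6% and 37.1% of all tested genes. Scarb2 and Scp2 rose by 2.29 ± 0.16 and 1.44 ± 0.15 in the striatum and 2.41 ± 0.16 and 2.27 ± 0.15 in the hippocampus, while the ester hydrolase Nceh1 fell by 2.14 ± 0.12 in the striatum and 2.02 ± 0.12 in the hippocampus. Of the 6 listed genes that act on oxysterols and bile acids, 4 were tested, and 2 were higher and 1 lower in each region. Cyp7b1 and Hsd3b7, both of which act on oxysterols, rose by 1.94 ± 0.20 and 1.57 ± 0.17 in the striatum and 2.03 ± 0.20 and 1.45 ± 0.17 in the hippocampus. The hydroxylase Cyp27a1 was lower in the striatum by 0.50 ± 0.21 (adjusted p = 0.0436), but the groups overlapped and 1 animal was higher in IP. The sulfotransferase Sult2b1 fell in the hippocampus by 1.49 ± 0.28.

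The next comparison set the 2 kinds of astrocyte IP against each other. In Str.IP over Hip.IP, 12 of 31 members were lower and 0 higher, against 4.93% of all tested genes lower and 7.23% higher. The 12 were Hmgcs1, Idi1, Fdps, Fdft1, Sqle, Lss, Cyp51, Hsd17b7, Ebp and Sc5d, which are 10 of the 19 enzymes, and Insig1 and Stard4 among the 12 others. The member median was -0.42, and that of all genes 0.01. All 3 squalene to lanosterol genes were lower, with 4 of 8 late enzymes, 2 of 3 isoprenoid genes and 1 of 5 early genes. The values of Cyp51 and Sqle given above did not overlap between the IPs, with Str.IP lower by 0.75 ± 0.11 (adjusted p = 0.0001697) and 0.68 ± 0.13 (adjusted p = 0.00174), and these 2 calls held under every alternative run. Hmgcs1 fell by 0.63 ± 0.15 and Ebp by 0.68 ± 0.17, with no overlap. Tm7sf2, Msmo1 and Dhcr7 were lower in Str.IP in all 4 animals and did not pass (-0.82 ± 0.27, -0.47 ± 0.15 and -0.49 ± 0.18, adjusted p = 0.0608, 0.0591 and 0.102). With the 2 groups fitted alone they passed (adjusted p = 0.0275, 0.00826 and 0.0228).

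Srebf1 was 0.22 ± 0.22 (95% interval -0.24 to 0.69, adjusted p = 0.605) and Srebf2 -0.08 ± 0.19 (95% interval -0.49 to 0.32, adjusted p = 0.852) in Str.IP over Hip.IP, and neither passed. Whether they differed from the enzymes in this was not tested. Cyp46a1 was higher in Str.IP in all 4 animals, with no overlap, and did not pass (0.32 ± 0.24, adjusted p = 0.482). With the 2 groups fitted alone Cyp46a1 passed (0.325 ± 0.069, adjusted p = 0.0133).

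The regional count depended on the libraries. It fell to 7 lower without animal 970 and to 3 without animal 977, and to 5 without scaling, and it ran up to 15 over the other alternatives. Astrocyte markers moved the same way between the IPs: 6 of 12 were lower and 0 higher, with a median of -0.46, and their summed level was 7035 to 12217 in Str.IP against 10798 to 14404 in Hip.IP, none at 0. Oligodendrocyte markers were higher for 6 of 10 in Str.IP (median 1.05), with summed levels of 91.8 to 143.7 against 85.1 to 91.4 in Hip.IP. Of neuronal markers 2 were higher and 1 lower of 13. Their part in the regional difference was not tested. The astrocyte sum and the enzyme sum (469 to 614 in Str.IP and 734 to 787 in Hip.IP) were each lower in Str.IP in all 4 animals.

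**Figure D4:**
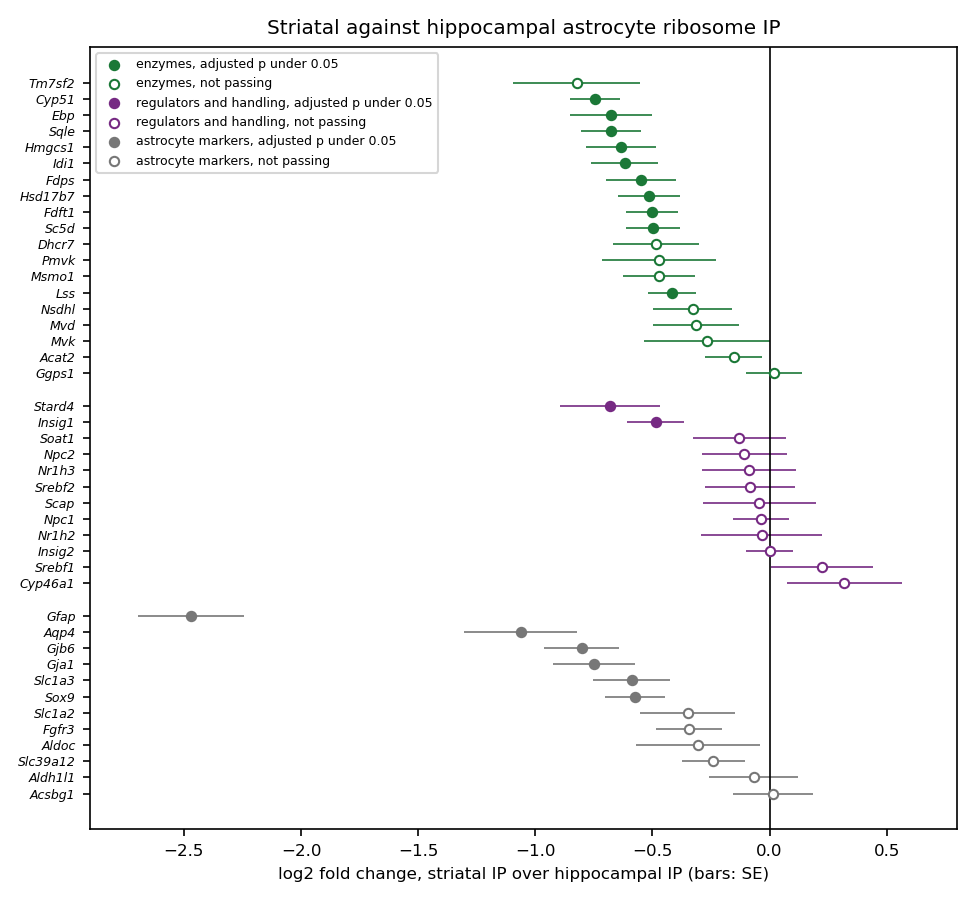
Points are log2 fold changes of striatal over hippocampal IP with SE bars, for the 19 enzymes, the 12 regulators and handling genes, and 12 astrocyte markers; filled points passed. Most enzymes lie between -0.3 and -0.8, Srebf1 and Cyp46a1 lie right of 0, and the astrocyte markers reach from -2.47 to 0.02.

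In the tissue inputs, the striatum was lower for 9 of 31 members and higher for 1 (Npc1). Of all tested genes 21.1% were lower and 15.4% higher, and whether the members differed from these shares was not tested. The median log2 fold change was -0.14 for the members and -0.05 for all genes. The 9 were Mvk, Pmvk, Fdps, Sqle, Tm7sf2, Nsdhl, Sc5d, Dhcr7 and Insig2. The largest fall was that of Tm7sf2, with 2.09, 3.22, 0.516 and 2.25 in Str.input against 3.46, 4.998, 4.68 and 6.03 in Hip.input (log2 fold change -1.01 ± 0.27, adjusted p = 0.00849). Animal 974 was the lowest, and the groups did not overlap. Mvk fell by 0.88 ± 0.27 and Npc1 rose by 0.32 ± 0.12. The change of Mvk was -0.53 (adjusted p = 0.2098) without animal 971, -0.73 (adjusted p = 0.1086) without animal 974 and -0.25 (adjusted p = 0.3652) without striatal inputs 971 and 974, and it did not pass with the 2 groups fitted alone (adjusted p = 0.0825). The count of lower members was 2 without animal 970 and 1 without animal 971, and Npc1 did not pass without animal 970, 971 or 977. Dhcr7 did not pass with the animal as a block (adjusted p = 0.0537), and without striatal inputs 971 and 974 it moved by -0.13.

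The last comparison asked whether the IP over input difference itself differed between the regions. It was lower in the striatum for 5 members and higher for 0, against 5.38% of all tested genes lower and 8.76% higher. The 5 were Lss (-0.51 ± 0.15, adjusted p = 0.0278), Cyp51 (-0.57 ± 0.15, adjusted p = 0.0186), Msmo1 (-0.74 ± 0.22, adjusted p = 0.0334), Ebp (-1.09 ± 0.25, adjusted p = 0.00711) and Stard4 (-1.04 ± 0.30, adjusted p = 0.0291), in all 4 animals each. Idi1 (-0.62 ± 0.20, adjusted p = 0.0516) and Insig1 (-0.52 ± 0.17, adjusted p = 0.0519) lay just outside, and Insig1 passed with the animal as a block (adjusted p = 0.0365). The count was 2 without animal 970, 0 without 971, 2 without 974 and 1 without 977, and none of the 5 held under every alternative. Msmo1 did not pass without any 1 of the 4 animals, and its value was -0.47 (adjusted p = 0.0751) without animal 974 and -0.44 (adjusted p = 0.0777) without animal 974 and striatal input 971. The comparison shares its libraries with those above.

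The members also varied among animals. The median coefficient of variation was 14.6% in Str.IP, 32.3% in Str.input, 10.7% in Hip.IP and 11.1% in Hip.input. In Str.IP animal 971 was the highest for 22 of the 31 members, and animal 977 the lowest for 13. The same library, Str.IP of animal 971, held the highest astrocyte sum of the 4 striatal IPs.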

How the data were processed

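Values were taken from 16 deposited tables, 1 per library, as FPKM made by the authors; the labels do not name the unit, and the values fitted it, since 1938 of 1958 low genes (98.98%) lay on whole-fragment steps within 0.02. Absolute depth rests on gene lengths from GENCODE vM21. Per the submitters' processing notes, the tools were bcl2fastq 2.17, STAR and HTSeq with mm10; per the labels' protocols, libraries came from the Nugen Ovation RNA-Seq System V2 kit from 100 ng of RNA. Of 24060 labels, 27 altered into dates were left out. FPKM was divided by a trimmed-mean factor (30% of log ratios and 5% of levels trimmed). Genes at 1 FPKM or above in 4 or more libraries were kept, and log2(value + 1) was fitted with limma 3.58.1 (R 4.3.3), with 4 groups, 12 residual degrees of freedom, and trended, robust variance. Members and gene lists were chosen with earlier results of these data known, and all 31 members were named; from the other lists up to 3 called genes with the smallest p per region were named, except that some are not reported here. Tables named for each animal pair the libraries by animal; with group means removed, same-animal correlation across genes was 0.303 to 0.525 between the 2 IPs, 0.054 to 0.318 between the inputs, 0.086 to 0.171 in the hippocampus and -0.008 to 0.085 in the striatum between IP and input. The animal was an alternative block. All intervals are for a difference of group means in the limma fit. They rest on the spread between the 4 animals, pooled over all 4 groups and not over the 2 compared alone. Alternatives changed scaling, pseudocount, filter, variance model, libraries and animals. Python 3.11.15, pandas 2.3.3, numpy 2.4.6 and matplotlib 3.10.9 were used.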

Additional observations from a re-analysis of the deposited data

Results flagged for a closer look

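In 6 of 124 sets of 4 libraries, 1 library of a member stood apart by Dixon's criterion; chance gives about 1 in 20. Animal 971 was highest in Str.IP for Idi1 (9.68), Sc5d (58.4) and Insig1 (57.9). Animal 974 was highest in Str.input for Msmo1 (23.4) and Stard4 (5.52). Animal 970 was lowest in Str.input for Sc5d (9.41). No cause was tested.

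The IP over input difference differed between the regions for 5 members by the interaction in the limma fit: Lss (-0.51), Cyp51 (-0.57), Msmo1 (-0.74), Ebp (-1.09) and Stard4 (-1.04), each lower in the striatum in 4 of 4 animals. Of all tested genes 5.38% were lower and 8.76% higher in this comparison, and the count of members was 0 to 2 with 1 animal left out. The striatal inputs of Msmo1 and Stard4 include the high library of animal 974 named above.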

How the results depend on the processing

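Of 14 planned and 1 added alternative, chosen after seeing the data, the calls of IP over input changed least: 24 of 28 called members held in all in the striatum and 25 of 29 in the hippocampus, with 23 to 26 higher and 2 to 4 lower in the striatum and 23 to 28 higher and 2 to 3 lower in the hippocampus. A call was counted as held when it passed in every alternative that tested the gene. The 25 in the hippocampus include Nr1h3 and Stard4, which were tested in only 13 and 14 of the 15. Leaving out 1 animal gave 23 to 26 higher and 3 to 4 lower in the striatum. In the hippocampus it gave 26 to 27 higher and 2 lower. For Str.IP over Hip.IP, 2 of 12 held in all; the lower count was 5 without scaling and 3 to 10 with 1 animal left out, and the higher count was 1 (Cyp46a1) with the 2 groups fitted alone, without striatal inputs 971 and 974, and without animal 974 and striatal input 971. For the inputs, 1 of 10 held in all; the higher count was 0 with no filter and with no trend, 0 to 1 with 1 animal left out, and 2 without striatal inputs 971 and 974 and in the added alternative, and the lower count was 5 with the 2 groups alone and in the added alternative and 1 to 7 with 1 animal left out. For the difference, 0 of 5 held in all; the lower count was 3 without scaling, with 1 higher, 8 with median-of-ratios factors, 2 in the added alternative and 0 to 2 with 1 animal left out. Without scaling the median of all genes was -0.25 in Str.IP over Str.input (-0.03 with it) and -0.51 in Hip.IP over Hip.input (-0.15 with it), with 3142 and 2488 genes higher and 5564 and 7103 lower in place of 4314 and 3846 higher and 4448 and 4983 lower; for the difference it was 0.25 (0.09 with it), with 1596 higher and 614 lower in place of 1178 and 723, and 911 and 955 with median-of-ratios factors. Without scaling Stard4 turned to -0.0573 in Str.IP over Str.input and Srebf2 to 0.0475 in Str.IP over Hip.IP, neither past the threshold. The replicate block changed 3 calls named in the report (Nr1h2, Dhcr7, Insig1) and no other call of the 31 members, and the counts then were within 1.5 times. Single calls of markers and neighbouring genes were not checked under the alternatives. Few fragments in striatal input limit Mvd, Nr1h3, Tm7sf2 and Nr1h2, with an estimated 2 to 8 in the lowest library. They also limit Pmvk, Mvk and Idi1, with 12 to 14 there. Nr1h3 was at 7 to 17 in Hip.input too. The cause of the changes was not tested, beyond fewer libraries in those left out.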

Other observations

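Of the 67 tested genes on the neighbouring lists, 4 were higher and 7 lower in Str.IP over Hip.IP, with a median of -0.04, against 7.23% of all tested genes higher and 4.93% lower. The fatty acid and acetyl-CoA genes were lower for 3 of 9 and higher for 0 (median -0.29), and genes of SREBP cleavage and reductase turnover were lower and higher for 0 of 11. Transport and storage genes were lower for 3 and higher for 2 of 19, and efflux and uptake genes were higher for 2 and lower for 0 of 12. The lists differ in size and level, and no test between them was run.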
